A study of Mus musculus with 4 samples.

Results

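The 9 genes described here carry the type I interferon signal and hold it in check: the receptor subunits Ifnar1 and Ifnar2, the transcription factors Stat2, Irf9, Irf1, Irf3 and Irf7, and the feedback inhibitors Usp18 and Socs1. They were chosen by symbol, as every probe set of the array table that names one of these genes alone. This gave 16 probe sets for 9 genes, of 45037 probe sets and 18193 singly named genes in all, with 1 probe set for each of 5 genes and several for the other 4. RNA came from whole livers of C57BL/6 mice at 4 weeks of age, kept under SPF conditions and hybridised 1 liver to 1 array, with 2 Cnot3KO livers and 2 Control livers. Cnot3 belongs to the Ccr4-Not deadenylase, which trims poly(A) tails and so leads mRNAs into decay. In Cnot3KO mice a floxed Cnot3 allele was removed by Cre recombinase under the albumin promoter, which acts in hepatocytes, so that other cells of the liver should keep the gene. The Control livers are labelled wild type, while the study's methods name several floxed or Cre-carrying genotypes as controls, and the genotype of each of these 2 mice is not given. The sex of the mice is not in the labels and was read from sex-linked genes below.

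Type I interferons bind the paired receptor Ifnar1 and Ifnar2, and the kinases bound to it phosphorylate STAT proteins. Stat2 and Irf9 are subunits of ISGF3, the complex that binds the interferon-stimulated response element (ISRE) in target genes. Irf3 and Irf7 act at the other end of the pathway, where they switch on interferon genes after viral RNA or DNA is sensed. Irf1 is induced by interferon gamma through the gamma-activated site (GAS) and drives genes of antigen processing. Usp18 and Socs1 are made in response to interferon and damp signalling at the receptor. In the sequences printed below, capitals mark matches to an ISRE core (GAAANNGAAA, or TTTCNNTTTC as read on the other strand) or a GAS core (TTCNNNGAA, the same on both strands) in the 250 bases before an annotated gene start. They are RefSeq sequences of build GRCm38.p6, given 5′ to 3′ on the strand of the gene. Of 32851 such windows for mouse genes, 2.98% held an ISRE core and 7.02% a GAS core. For the members, 10 windows of 8 genes were at hand, and Usp18 had none. A match is a run of letters and was not tested as a binding site.

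Each value below is a log2 RMA intensity of 1 array, and each difference is Cnot3KO minus Control with its SE from the limma fit. Over all probe sets the arrays correlated at r = 0.989 between the Cnot3KO livers, 0.981 between the Control livers and 0.937 to 0.948 between groups. Over the 4 arrays the Y-linked genes Eif2s3y (1417210_at) and Kdm5d (1424903_at) read 7.34 to 7.90 and 4.95 to 5.18. Xist, expressed in females, read 1.99 to 2.33 (1436936_s_at), so all 4 livers read as male. The other probe sets of these genes lay under the median of every array. Cnot3 itself measured 5.15 and 5.30 in Cnot3KO livers, against 5.99 and 6.04 in Control livers (1435965_at, −0.79 ± 0.16, adjusted p = 0.037). Its other probe set, 1441465_at, read 4.35 and 4.06 in Cnot3KO livers, against 4.71 and 4.51 in Control livers. That difference did not pass (−0.40 ± 0.19, limma adjusted p = 0.218). Which exons the Cnot3 probe sets match was not determined. The 10 hepatocyte markers were measured on every array, with Alb at 13.74 and 13.79 in Cnot3KO livers and 13.84 and 13.73 in Control livers. Of these 10 markers 1, Cyp2e1, was lower and 0 were higher in Cnot3KO livers. Their median difference was −0.27, with 2 of the 10 positive. Their summed linear intensity was 63494 and 65481 in Cnot3KO livers, against 72984 and 69968 in Control livers. No label says whether the livers came from separate litters. The p-values rest only on the spread between these 4 arrays, which limma shares in part over all tested probe sets.

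Usp18, Irf7 and Irf1 were more abundant in Cnot3KO livers, by 7.15-fold, 3.67-fold and 2.43-fold. The receptor subunits, Stat2, Irf9, Irf3 and Socs1 did not pass the test, and 0 of the 9 genes were lower. All 16 probe sets passed the filter on low values. Of these, 3 were higher and 0 lower at an adjusted p under 0.05, where 8.48% of all 38405 tested probe sets were higher and 4.78% lower. By the main probe set of each gene, the one with the highest mean, 3 of 9 genes were higher, where 12.2% of 16758 genes were higher and 4.64% lower. Without adjustment, 8 member probe sets were higher and 1 lower at p under 0.05, where 16.5% of all tested probe sets were higher and 14.5% lower. Both Cnot3KO arrays lay above both Control arrays for 11 of the 16 probe sets, against 26.9% of all tested probe sets, and below them for 2, against 35.9%. For the remaining 3 the groups overlapped. The median difference over the 9 genes was 0.73, against 0.0020 over all genes. In whole liver, a change in the number of cells that express a gene and a change in its RNA per cell cannot be told apart.

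**Figure D1:**
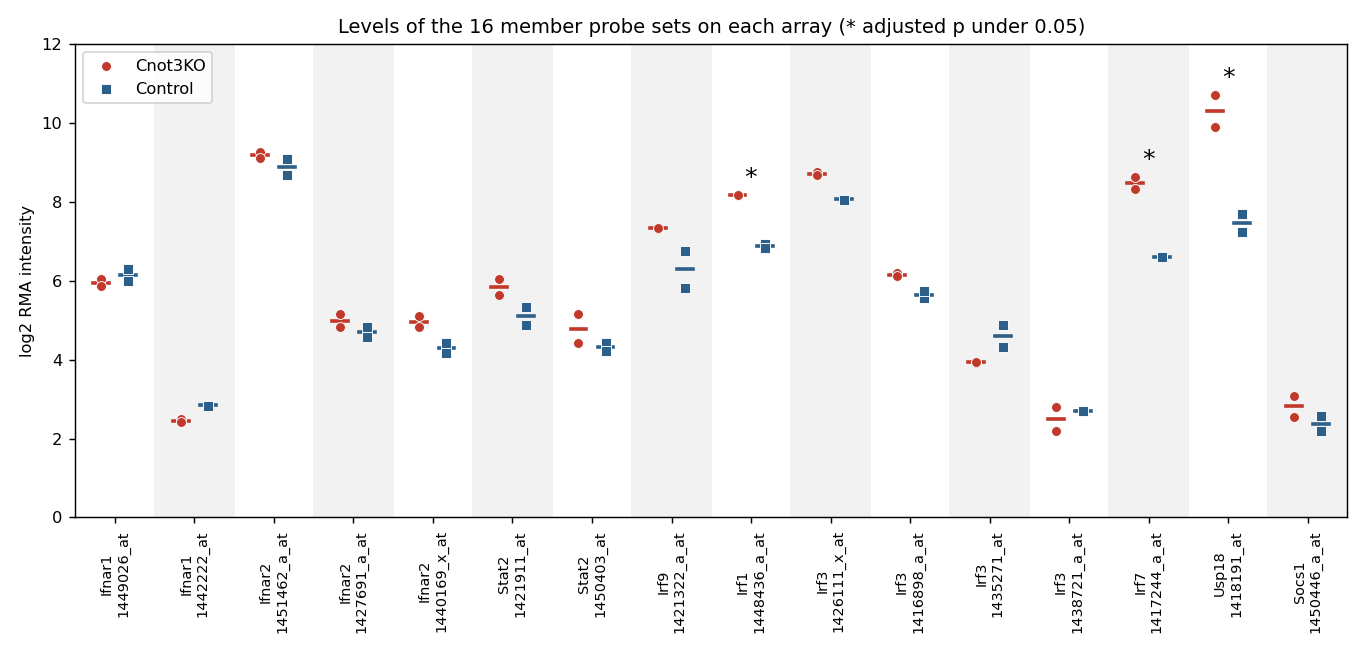
Log2 RMA intensity (y axis) of the 16 probe sets of the 9 genes (x axis), with circles for the 2 Cnot3KO arrays, squares for the 2 Control arrays and bars for group means; an asterisk marks an adjusted p under 0.05. The asterisks stand over Irf1, Irf7 and Usp18, and Usp18 shows the widest gap between the groups (10.71 and 9.90 in Cnot3KO livers, 7.24 and 7.69 in Control livers).

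The receptor subunits showed no called difference. For Ifnar1, which binds the kinase Tyk2, the main probe set 1449026_at read 6.03 and 5.87 in Cnot3KO livers, against 6.29 and 5.99 in Control livers. The groups overlapped, with a difference of −0.19 ± 0.19 (adjusted p = 0.528). The other Ifnar1 probe set, 1442222_at, lay under the median of every array, at 2.49 and 2.41 in Cnot3KO livers and 2.86 and 2.83 in Control livers (−0.39 ± 0.16, adjusted p = 0.164). For Ifnar2, the subunit bound by Jak1 and by Usp18, the main probe set 1451462_a_at read 9.27 and 9.11 in Cnot3KO livers, against 9.08 and 8.67 in Control livers (0.31 ± 0.21, adjusted p = 0.356). Its 95% interval ran from −0.21 to 0.83. The probe set 1427691_a_at gave a similar difference (0.28 ± 0.20, adjusted p = 0.381). The third, 1440169_x_at, read 4.82 and 5.10 in Cnot3KO livers and 4.17 and 4.43 in Control livers (0.66 ± 0.19, adjusted p = 0.084). The ending _x_at marks probes that can match other transcripts. The 3 Ifnar2 probe sets thus had all Cnot3KO values above all Control values without passing, an order that 26.9% of all tested probe sets had. The margin was 0.026 for 1451462_a_at, 0.0029 for 1427691_a_at and 0.40 for 1440169_x_at. The window before Ifnar2, chr16:91372533-91372782 on the plus strand, is shown for its GAS core, which starts 214 bases before the gene.
Ifnar2: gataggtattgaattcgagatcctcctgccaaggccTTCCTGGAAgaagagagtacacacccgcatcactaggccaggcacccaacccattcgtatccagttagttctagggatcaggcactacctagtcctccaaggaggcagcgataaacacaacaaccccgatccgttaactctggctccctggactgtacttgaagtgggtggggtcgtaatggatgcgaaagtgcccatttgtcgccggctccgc
The window before Ifnar1 held neither core.

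Stat2 and Irf9, the subunits of ISGF3, were higher on every Cnot3KO array than on every Control array, but the differences did not pass. Of all tested probe sets, 26.9% had that order. Stat2 read 6.05 and 5.63 in Cnot3KO livers, against 4.88 and 5.34 in Control livers (1421911_at, 0.73 ± 0.25, adjusted p = 0.115). The gap between replicate arrays was 0.43 in Cnot3KO livers and 0.46 in Control livers, more than the 0.29 that separated the nearest arrays of different groups. The other Stat2 probe set, 1450403_at, read 5.15 and 4.41 in Cnot3KO livers and 4.41 and 4.23 in Control livers (0.46 ± 0.28, adjusted p = 0.315). Its groups were only 0.0041 apart, and without Cnot3KO replicate 1 its difference was 0.095. The span of Stat2 overlaps that of Apof, a gene for an apolipoprotein, in the RefSeq annotation. Irf9, the DNA-binding subunit, read 7.31 and 7.34 in Cnot3KO livers, against 5.80 and 6.76 in Control livers (1421322_a_at, 1.04 ± 0.33, adjusted p = 0.103). The Cnot3KO arrays differed by only 0.034, while the Control arrays differed by 0.96, so the size of the difference depends on the Control arrays. Without Control replicate 2 it was 1.52, and without Control replicate 1 it was 0.56. The window before Stat2, chr10:128270248-128270497 on the plus strand, is shown for its ISRE core, which starts 222 bases before the gene.
Stat2: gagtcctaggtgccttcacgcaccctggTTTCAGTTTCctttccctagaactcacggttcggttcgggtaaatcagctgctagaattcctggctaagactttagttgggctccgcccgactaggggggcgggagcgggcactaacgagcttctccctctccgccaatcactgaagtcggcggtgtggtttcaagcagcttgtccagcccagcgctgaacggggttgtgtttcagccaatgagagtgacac
Neither of the 2 windows before Irf9 held a core.

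Of the IRF genes, Irf7 changed most. Irf7, the factor that amplifies interferon alpha production, read 8.63 and 8.34 in Cnot3KO livers, against 6.62 and 6.59 in Control livers. The groups were far apart relative to the gap between replicates, which was 0.30 in Cnot3KO livers and 0.025 in Control livers. The difference was 1.88 ± 0.18, with a 95% interval of 1.42 to 2.33 (1417244_a_at, adjusted p = 0.00716), and it stayed between 1.73 and 2.02 with any 1 array left out, each time past the threshold. Irf1 read 8.16 and 8.17 in Cnot3KO livers, against 6.94 and 6.83 in Control livers. Its replicates differed by 0.0016 in Cnot3KO livers and by 0.11 in Control livers. The difference was 1.28 ± 0.16, with an interval of 0.88 to 1.68 (1448436_a_at, adjusted p = 0.0115). Without Cnot3KO replicate 1 it was again 1.28, at an adjusted p of 0.0562. Irf1 and Irf7 are shown here because both changed: the Irf1 window, chr11:53769764-53770013 on the plus strand, held a GAS core 90 bases before the gene, and the Irf7 window, chr7:141266425-141266674 on the minus strand, held neither core.
Irf1: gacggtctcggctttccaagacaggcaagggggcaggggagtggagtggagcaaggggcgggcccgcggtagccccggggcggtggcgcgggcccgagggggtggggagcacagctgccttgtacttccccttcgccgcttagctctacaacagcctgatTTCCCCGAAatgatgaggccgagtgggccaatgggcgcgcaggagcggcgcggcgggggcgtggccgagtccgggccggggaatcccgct
Irf7: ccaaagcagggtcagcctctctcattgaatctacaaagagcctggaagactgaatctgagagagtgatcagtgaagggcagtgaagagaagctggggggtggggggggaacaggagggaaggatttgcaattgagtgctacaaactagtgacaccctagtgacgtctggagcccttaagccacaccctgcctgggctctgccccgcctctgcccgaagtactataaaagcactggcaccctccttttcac
A different start of Irf1, further along the gene, had no match in its window.

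The 4 probe sets of Irf3, the factor that is present in resting cells and activated by phosphorylation, did not move together. The main probe set 1426111_x_at read 8.75 and 8.68 in Cnot3KO livers, against 8.08 and 8.06 in Control livers (0.65 ± 0.16, adjusted p = 0.0551). It ends in _x_at and just missed the threshold. It passed when arrays were centred on their medians (0.69, adjusted p = 0.0476) or when only probe sets with a mean above the 50th percentile were tested (adjusted p = 0.0497). With arrays centred on the gene Rplp0 it did not pass (0.58, limma adjusted p = 0.234), nor with the replicate number as a block (limma adjusted p = 0.0703). The probe set 1416898_a_at read 6.19 and 6.12 in Cnot3KO livers and 5.57 and 5.73 in Control livers (0.51 ± 0.16, adjusted p = 0.107). In contrast, 1435271_at read 3.91 and 3.95 in Cnot3KO livers and 4.88 and 4.31 in Control livers (−0.67 ± 0.23, adjusted p = 0.126). The fourth, 1438721_a_at, lay under the median of every array and its groups overlapped (−0.20 ± 0.24). The mean over the 4 probe sets gave a difference of 0.070 for Irf3 (adjusted p = 0.772), in place of 0.65 for the main probe set. Which Irf3 transcripts each probe set matches was not determined. The window before Irf3 held neither core.

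Usp18, the protease that removes ISG15 from proteins and blocks signalling at Ifnar2, showed the largest difference of the 9 genes. It read 10.71 and 9.90 in Cnot3KO livers, against 7.24 and 7.69 in Control livers. The lowest Cnot3KO value was 2.21 above the highest Control value, more than either gap between replicates, which were 0.81 in Cnot3KO livers and 0.46 in Control livers. The difference was 2.84 ± 0.32, with a 95% interval of 2.03 to 3.65 (1418191_at, adjusted p = 0.00957). With 1 array left out it ranged from 2.43 to 3.24, and without Control replicate 1 it was 2.61 at an adjusted p of 0.0545. In the RefSeq annotation the span of Usp18 overlaps the long noncoding gene Gm44148. Socs1, which binds and inhibits JAK kinases, lay under the median of every array. It read 2.55 and 3.08 in Cnot3KO livers, against 2.57 and 2.18 in Control livers (1450446_a_at, 0.44 ± 0.25, adjusted p = 0.294). The groups overlapped, and the 95% interval, −0.19 to 1.08, leaves a 2-fold rise within its bounds. Of the feedback inhibitors, Usp18 thus passed the test and Socs1 did not, and the difference between them was not tested. The window before Socs1, chr16:10785537-10785786 on the minus strand, is shown because it held overlapping ISRE cores, GAAAGAGAAA and GAAACCGAAA, which start 83 and 77 bases before the gene.
Socs1: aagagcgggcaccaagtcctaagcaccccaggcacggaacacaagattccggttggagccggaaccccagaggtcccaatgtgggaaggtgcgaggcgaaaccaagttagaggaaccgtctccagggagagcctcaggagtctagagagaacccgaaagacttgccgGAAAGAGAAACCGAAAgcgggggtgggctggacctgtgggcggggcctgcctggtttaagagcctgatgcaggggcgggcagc
Of the members with a window, Stat2 and Socs1 held an ISRE core, and neither was called. Of 22 type I interferon response genes with a window, 9 held one. A link between the core and the differences was not tested.

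**Figure D2:**
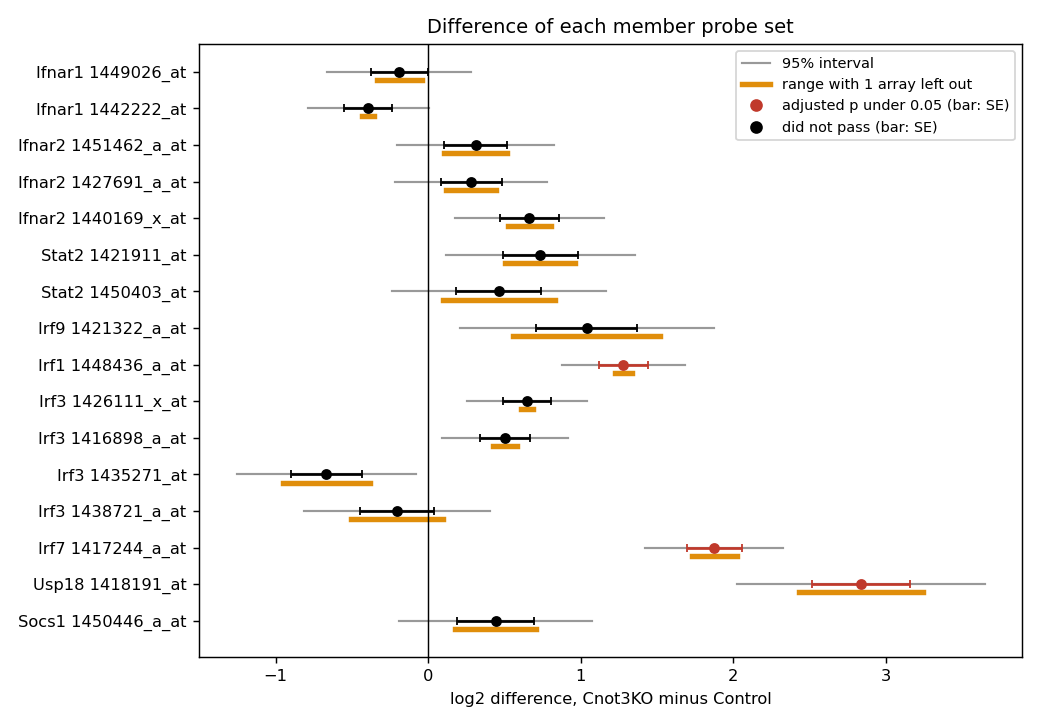
Log2 difference, Cnot3KO minus Control (x axis), of each probe set of the 9 genes (y axis): points with SE bars (n = 2 arrays per group), grey lines for 95% intervals and orange bars for the range with 1 array left out, red where the adjusted p was under 0.05. The intervals of Irf1, Irf7 and Usp18 lie well above 0, and the orange bar of Irf9 runs from 0.56 to 1.52.

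The other genes of the pathway are given by lists written from general knowledge, with earlier results of these data known. Of 19 interferon ligands listed, 10 were named alone by a probe set, 8 passed the filter and 1 was higher. This was Ifnz, interferon zeta, which read 3.98 and 4.33 in Cnot3KO livers, against 2.84 and 2.83 in Control livers (1.32 ± 0.19, adjusted p = 0.0153). Ifnb1, the gene for interferon beta, read 2.43 on both Cnot3KO arrays, against 2.56 and 2.57 in Control livers, and 5 of the 8 ligands (Ifnb1, Ifna4, Ifna5, Ifna9 and Ifng) lay under the median of every array. Of 7 receptor-bound kinases and other interferon receptors, 3 were higher and 0 lower. These were Ifnlr1, a subunit of the interferon lambda receptor (2.38 ± 0.22, adjusted p = 0.00665), Il10rb, its partner (1.29 ± 0.27, adjusted p = 0.0388), and Ifngr1, a subunit of the interferon gamma receptor (0.92 ± 0.19, adjusted p = 0.0351). Ifnlr1 read 5.09 and 4.75 in Cnot3KO livers, against 2.35 and 2.72 in Control livers. The kinases did not pass, at 0.78 for Jak1 (adjusted p = 0.0581), −0.06 for Jak2 and −0.02 for Tyk2.

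Among 12 other STAT and IRF genes, 1 was higher and 0 lower, with a median of 0.0058. The gene was Irf8, a factor of macrophages and dendritic cells, at 6.28 and 6.33 in Cnot3KO livers, against 5.27 and 4.77 in Control livers (1.29 ± 0.22, adjusted p = 0.0227). Stat3, which serves interleukin 6, had a difference of 0.01, Stat6 of 0.37 and Irf2, an antagonist of Irf1, of −0.80 (adjusted p = 0.111). Of 15 other inhibitors of JAK-STAT signalling, 1 was higher and 0 lower, with a median of 0.30. This was Cish, a relative of Socs1 that restrains Stat5 (1.23 ± 0.22, adjusted p = 0.0254). Among those that did not pass, the phosphatase genes Ptpn2 and Ptpn6 had differences of 0.69 and 0.86 (adjusted p = 0.0546 and 0.0594), Ptpn11, also a phosphatase gene, of −0.50 (adjusted p = 0.131), and Socs2 of −0.02. In the ISG15 conjugation list, whose products Usp18 opposes, 2 of 4 genes were higher: Herc6, a ligase for ISG15 in mice (8.59 and 7.68 in Cnot3KO livers, against 4.94 and 5.31 in Control livers, 8.03-fold, adjusted p = 0.00939), and Uba7, the ISG15-activating enzyme (1.32 ± 0.20, adjusted p = 0.0166). Ube2l6 and Trim25 did not pass, at 0.36 and 0.31. The gene for ISG15 itself was listed but was not among the 4 measured.

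Upstream of Irf3 and Irf7, 6 of 15 sensors, adaptors and kinases were higher and 1 lower, with a median of 0.65. The RNA sensors Dhx58 (2.71 ± 0.47), Tlr3 (2.55 ± 0.25), Ddx58 (1.80 ± 0.20) and Ifih1 (1.77 ± 0.21) rose, as did Tlr7 (0.86) and the DNA-sensing adaptor Sting1 (0.82), at limma adjusted p between 0.00716 and 0.0433. Irak1, a kinase of the Toll-like receptor pathway, fell by 0.86 ± 0.17 (adjusted p = 0.0339). Tbk1 and Ikbke, the kinases that phosphorylate Irf3 and Irf7, did not pass, at 0.43 and 0.67, nor did the adaptor Mavs at 0.45. Downstream, 24 of 28 type I interferon response genes were higher and 0 lower, with a median of 2.75. The largest were Oasl1 (4.65 ± 0.76), Ifit1 (4.63 ± 0.51), Oasl2 (4.58 ± 0.27) and Ifit2 (4.49 ± 0.32). Dtx3l, Bst2, Mx2 and Oas1b did not pass. Of 19 interferon gamma and Irf1 response genes, 10 were higher and 0 lower, with a median of 1.58, led by the GTPase gene Gbp3 (2.65 ± 0.28) and the immunoproteasome genes Psmb8 (2.54 ± 0.16) and Psmb9 (2.21 ± 0.19). In that list B2m, the light chain of class I molecules, and Iigp1 did not pass, at −0.11 and 0.12. The median of the 9 members, 0.73, thus stood between that of all genes and those of the response lists, with no test of these medians.

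**Figure D3:**
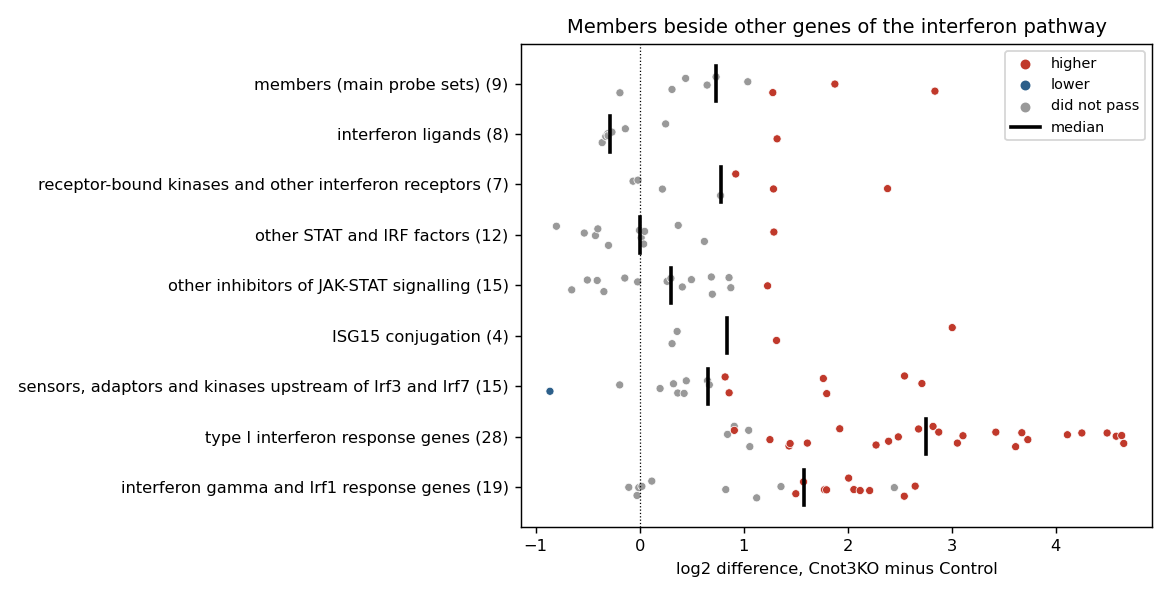
Log2 difference, Cnot3KO minus Control (x axis), of each measured gene by its main probe set, for the 9 members and 8 lists (y axis, number of genes in brackets); red points were higher, blue lower and grey did not pass, and black bars are medians. The type I interferon response genes have a median of 2.75, and the other STAT and IRF factors one of 0.0058.

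Replicate arrays of a group differed in the level of interferon response genes, and some members followed. Of the 28 type I response genes, 26 were higher on Cnot3KO array 1 than on array 2, and 24 were higher on Control array 2 than on array 1, while for all genes these shares were 51.8% and 51.6%. The median gap of the response genes, array 2 minus array 1, was −0.38 in Cnot3KO livers and 0.57 in Control livers. Of the 9 members by main probe set, 6 were higher on Cnot3KO array 1, but only 3 were higher on Control array 2. The median gaps of the members were −0.16 and −0.027. Usp18 and the main probe set of Stat2 had the same order in both groups as most response genes, and Irf9 had it in Control livers. The other Stat2 probe set had it in Cnot3KO livers only. Irf1 was nearly level between the Cnot3KO arrays, and its Control array 1 was the higher. Irf7 followed that order in Cnot3KO livers, but its Control arrays differed by only 0.025. With 2 livers a group these orders are a description.

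**Figure D4:**
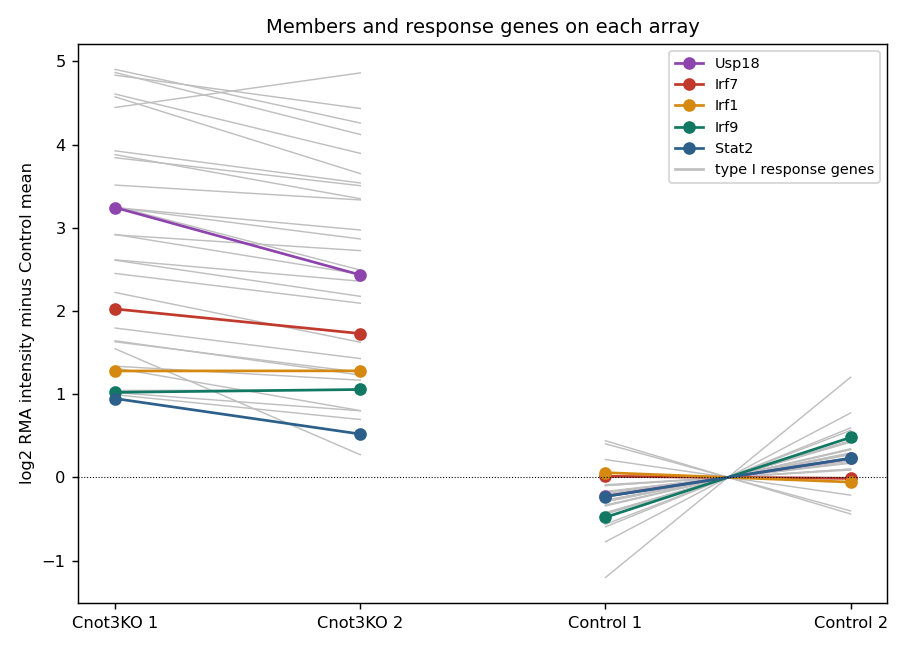
Log2 RMA intensity minus the Control mean of the same gene (y axis) on each of the 4 arrays (x axis), with lines joining the replicate arrays of a group for 5 members (coloured) and the type I interferon response genes (grey). Most grey lines and that of Usp18 slope down between the Cnot3KO arrays and up between the Control arrays, while Irf1 is nearly level in both groups.

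The genes whose pattern over the 4 arrays was most like that of Irf7, by the root mean square difference of centred log2 values among 16757 other genes, were Cstb (0.027), Adgrg1 (0.044), Ints12 (0.045) and Tmem41a (0.046). Cstb, which encodes the protease inhibitor cystatin B, read 11.22 and 10.89 in Cnot3KO livers, against 9.13 on both Control arrays (1.92 ± 0.19, adjusted p = 0.00720). Of the other members, Irf1 came nearest at rank 595, and Usp18, whose difference was larger, and Irf9 were at ranks 2004 and 2128. None of the 4 nearest genes is on the lists above, and with 4 arrays the measure mainly reads the size of the difference between groups.

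Markers of macrophages, cholangiocytes and stellate cells were among those higher in Cnot3KO livers, as the called members were. Of 14 macrophage and Kupffer cell markers, 7 were higher and 0 lower, with a summed linear intensity of 6036 and 6812 in Cnot3KO livers, against 3379 and 3236 in Control livers. Cd68 differed by 2.34 ± 0.23 and Mpeg1 by 1.30 ± 0.16, while the Kupffer cell marker Clec4f, at 0.60 ± 0.18, did not pass. Of 7 plasmacytoid dendritic cell markers, whose cells make much interferon alpha and carry high Irf7, 2 were higher (Ccr9 and Tlr7). Their sum was 87.9 and 93.7 in Cnot3KO livers, against 74.6 and 72.8 in Control livers, and Siglech, the defining marker, read 2.79 and 2.93 in Cnot3KO livers and 2.96 and 2.53 in Control livers, under every array's median. Cholangiocyte markers were higher for 3 of 5 (sum 312 and 169 in Cnot3KO livers, 34.8 and 39.0 in Control livers), stellate cell markers for 3 of 6 (1356 and 990, against 728 and 534) and neutrophil markers for 1 of 4 (149 and 97.6, against 63.7 and 61.7). Of T and NK cell markers 0 of 9 were called either way, with a median of 0.45 (sum 113 and 139 in Cnot3KO livers, 99.4 and 94.9 in Control livers). Sinusoidal endothelium markers were called for 0 of 7, with a median of −0.043. Among 5 B cell markers Cr2 was higher (1.56 ± 0.34) while the other 4 had negative differences that did not pass, for a median of −0.31. The part of these cells in the differences of Usp18, Irf7 and Irf1 was not tested.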

How the data were processed

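RNA of 4 whole livers was hybridised to 1 GeneChip Mouse Genome 430 2.0 array each. The authors computed probe set intensities by RMA (Robust Multi-array Average), a method that removes background, normalises across arrays and combines the probes of a set. Its version is not given in the sources used here, nor whether other arrays were normalised with these. The deposited intensities are linear and were turned to log2 with no constant added. The number of arrays limits the precision. Probe sets above the 20th percentile of an array on at least 1 of the 4 arrays were tested, following the filter the study states, which left 38405 of 45037 (85.3%). Of the 45037, 34945 named 1 gene, 932 several and 9160 none in the platform annotation, and 0 symbols differed from the RefSeq table. The table names no genome build.

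Groups were taken from the labels and compared with lmFit and eBayes of limma 3.58.1 under R 4.3.3 (5.40 degrees of freedom in total, 2-sided), with Benjamini-Hochberg adjustment over all kept probe sets and an adjusted p under 0.05. The median SE was 0.193. The fit was checked on simulated data. With 2 arrays a group, no permutation test was used. Tables, motif searches and figures were made with Python 3.11.15, numpy 2.4.6, pandas 2.3.3 and matplotlib 3.10.9.

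The members and lists were chosen with earlier results of these data known, and Irf7 is among genes the study itself picked on such livers. Named were the members, Cnot3, Alb, up to 6 called genes of each list with the largest difference and up to 4 uncalled ones with the highest mean, not all of them for space, and the 4 genes nearest Irf7; Cyp2e1 is the marker that fell. Ifna4, Ifna5 and Ifng were named after their values were seen, and so were Eif2s3y, Kdm5d and Xist, read for sex. Alternatives were each array left out, a stricter filter or none, a repeated quantile normalization, centring on Rplp0 or on array medians, a block for the replicate number, leaving out probe sets that end in _x_at or _s_at, a robust or intensity-dependent prior, stricter thresholds, the methods' t-test and averaging the probe sets of a gene. A planned comparison of IRF protein sequences was not done.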

Additional observations from a re-analysis of the deposited data

How the results depend on the processing

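Over 17 alternatives for the member probe sets, and an 18th that averaged the probe sets of a gene, the differences gave 276 values, of which 263 kept their direction and side of the threshold, 6 lost a call, 6 gained one and 1 reversed. The reversed one was Irf3 1438721_a_at, which ranged from −0.51 to 0.098 with 1 array left out and was positive without Cnot3KO replicate 1. Part of this agreement was fixed in advance. Thresholds, filters, priors, the block and the t-tests leave the difference itself unchanged, so its direction could not reverse. A stricter threshold cannot add a call, and averaging leaves the difference of a gene with 1 probe set as it was. The 3 member probe sets called higher became 0 by the methods' t-test after Benjamini-Hochberg adjustment, and 5 without adjustment, where 1 was also lower. Over all probe sets, 3258 were higher and 1837 lower; these became 707 and 263 at an adjusted p under 0.01, 0 and 1 by the methods' t-test after adjustment, and 3860 and 3977 without it. With 1 array left out, 1194 to 1973 probe sets were higher and 508 to 1394 lower, and the lone array is then assumed to vary like the other group; of the members 2 to 4 were higher. Fewer arrays enter those fits; the cause of the other changes was not tested. Irf1 was not called at an adjusted p under 0.01 either. No label says whether arrays with the same replicate number are paired. Over all tested probe sets, the gap between replicates 1 and 2 in Cnot3KO livers correlated at 0.23 with that in Control livers. With the replicate number as a block 2967 probe sets were higher and 1716 lower, and 3 members were higher, with adjusted p of 0.0198 for Irf7, 0.0261 for Irf1 and 0.0276 for Usp18. All member directions held under the scaling alternatives. With 2 arrays a group and a median SE of 0.193, differences such as those of Socs1, Stat2 and Irf9 were not resolved, and Socs1 and single Ifnar1 and Irf3 probe sets had low signal.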
